A study of Mus musculus with 4 samples.

Results

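The S100 proteins and the annexins were followed in the lumbar spinal cord after a nerve injury. The members were all non-control probes of the array whose gene name begins with S100 followed by a, b, g, p or z, or with Anxa followed by a digit. They came to 41 of 55681 probes and to 30 genes, of which 17 were S100 genes, 12 were annexins and 1, S100pbp, encodes an S100 binding protein that shares only the prefix. Of these, 26 genes could be tested (14 S100 genes, 11 annexins and S100pbp) among 29244 genes and named transcripts.

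The tissue came from 4 male ICR mice (an outbred strain) aged 8 weeks, and each mouse gave 1 RNA sample and 1 array with 1 colour. Spinal nerve ligation (SNL, a model of neuropathic pain) was done in 2 of them by a tight silk tie around the spinal nerve L5, and the 2 sham mice had that nerve laid open without a tie. No mouse was left without surgery, so the sham values include whatever the operation itself did. All mice were perfused with saline at day 10 and lumbar cord was taken. The sample labels name the L5 cord and the protocol the L4 to L5 segments. No side of the cord was given in the sources used here. The 4 arrays lay on 1 slide and were scanned in 1 session. The sham arrays and the SNL arrays stood at different first position indices on that slide, so position and group cannot be told apart. Between 74.9% and 82.1% of the spots on each array were well above background, with both SNL arrays below both sham arrays, and no spot was saturated. Values below are log2 signals relative to the 75th percentile of the same array, so 0 is that percentile, and they compare mice for 1 probe but not probes with each other. Changes are SNL minus sham with their standard error (SE), and p-values come from limma, adjusted over all genes tested by the Benjamini-Hochberg method, with 0.05 as the threshold.

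S100 proteins are small calcium sensors built from a pair of EF-hands that usually work as dimers, and most of their genes lie together on mouse chromosome 3. Annexins bind acidic phospholipids of membranes when calcium rises and act in membrane repair, vesicle traffic and the control of inflammation. The families meet in stable complexes, of which S100a10 with Anxa2 and S100a11 with Anxa1 are the best known. In nervous tissue S100b is a classic glial protein, while S100a8 and S100a9 are abundant proteins of neutrophils.

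The main values of S100a11, S100a10, Anxa2 and S100g each rest on 1 probe, and the first 30 of its 60 bases are shown 5′ to 3′ so that the measured transcript can be identified. The mm9 positions of the whole probes, per the file headers and columns, are chr3:93330022-93330081 (+ strand) for S100a11, chr3:93368437-93368496 (+) for S100a10 and chr9:69339532-69339591 (+) for Anxa2. The brighter S100g probe lies at chrX:159399938-159399997 (−) and the dimmer one at chrX:159399924-159399983 (−). Capitals mark the stretch that the windows of both S100g probes share, and the whole probes share 46 bases.
S100a11: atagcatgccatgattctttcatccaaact
S100a10: caaatgagatccaactccaattcaacaatc
Anxa2: gtctgtgacatgagacacttcctcttatgt
S100g, brighter probe: gctgtgcgattatgATACATACTGTTAATA
S100g, dimmer probe: ATACATACTGTTAATAaagcaagttcggag
Probes of different member genes shared at most 11 bases in a row.

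No member passed the adjusted threshold in either direction. Over all genes tested, 0.161% were called higher (47 genes) and 0.0103% lower (3 genes). At an unadjusted p under 0.05, 4 of the 26 members were higher (15.4%) and 2 lower (7.69%), against 6.68% and 5.47% of all genes tested. The 4 higher members were S100a11, S100a10, Anxa2 and Anxa9, and the 2 lower ones were S100g and Anxa1. A difference of at least 2-fold at that p was seen for 1 member in each direction, S100a11 higher and S100g lower, against 1.9% and 0.704% of all genes. S100g was not well above background on either SNL array, so its fitted difference is no measure of size. Set against the floor described for it below, S100g was at least 1.97-fold lower, a minimum that leaves unsettled whether it reached 2-fold. The mice of both groups did not overlap in 10 members that were higher and 9 that were lower after SNL, against 25.2% and 21% of all genes tested, and overlapped in 7 members. The median change was -0.068 over the S100 genes and 0.11 over the annexins, beside 0.028 over all genes tested. The S100 median lay between -0.20 and 0.046 under the alternative settings, so its sign depended on the setting.

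**Figure D1:**
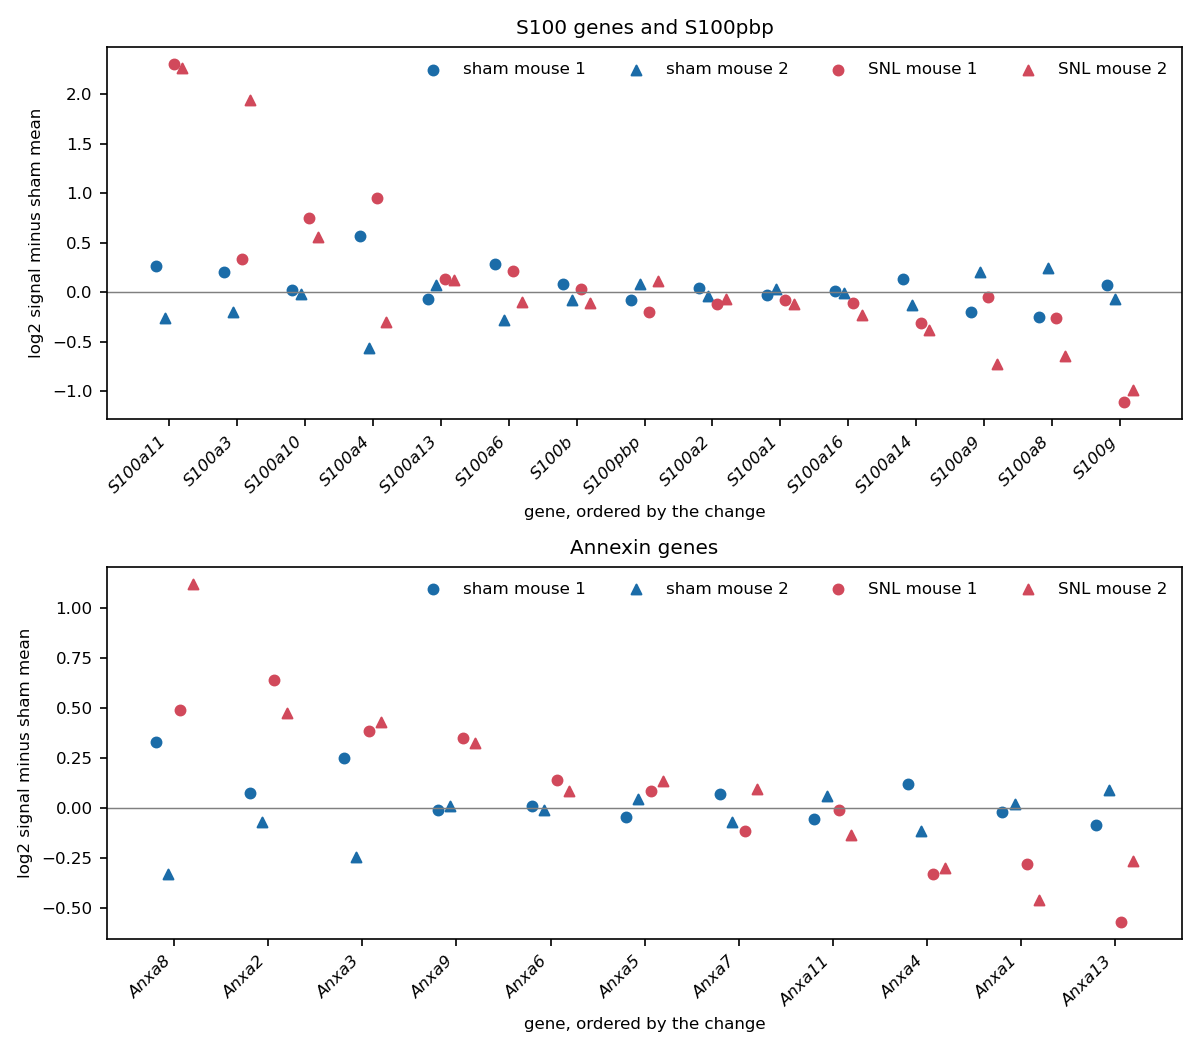
Log2 signal of each tested member in each of the 4 mice, minus the mean of the 2 sham mice (vertical axis), for S100 genes with S100pbp (top) and annexins (bottom), ordered by the change along the horizontal axis. Blue marks sham and red SNL, with a circle for mouse 1 and a triangle for mouse 2. S100a11 stands above both sham mice in both SNL mice, while S100a3 is high in SNL mouse 2 alone.

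S100a11, a calcium-dependent partner of annexins in membrane repair and growth control, showed the largest difference of all tested members. Its level was 0.10 and -0.42 in the sham mice and 2.15 and 2.11 in the SNL mice. Both SNL mice lay far above both sham mice and close to each other. The change was 2.28 ± 0.21 (SE, 2 mice per group), or 4.87-fold, with a 95% interval from 1.67 to 2.89. The p was 0.000668 before adjustment and 0.0975 after it, and the change stayed between 2.03 and 2.54 under the alternative settings. It passed the adjusted threshold under 2 of them, one that kept dim probes and one that let the variance follow the signal level with robust estimation. In cord as a whole, more cells of a type and more RNA per cell cannot be told apart.

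S100a10 (p11) binds Anxa2 and plasminogen and carries ion channels and serotonin receptors to the cell surface. Its level was 2.46 and 2.42 in the sham mice and 3.19 and 2.996 in the SNL mice, with both SNL mice above both sham mice. The change was 0.65 ± 0.11, or 1.57-fold (unadjusted p of 0.00592, adjusted p = 0.203). Its partner Anxa2, which organises membrane and actin at the cell surface, read 2.00 and 1.85 in the sham mice against 2.56 and 2.40 after SNL. These groups did not overlap either, and the change was 0.56 ± 0.12, or 1.47-fold (unadjusted p of 0.0119, adjusted p = 0.260). The 2 subunits of the complex thus differed by similar amounts, and under all alternative settings S100a10 stayed between 0.49 and 0.75 and Anxa2 between 0.44 and 0.64. Both passed the adjusted threshold under 1 of these settings, the robust one with a variance trend.

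**Figure D2:**
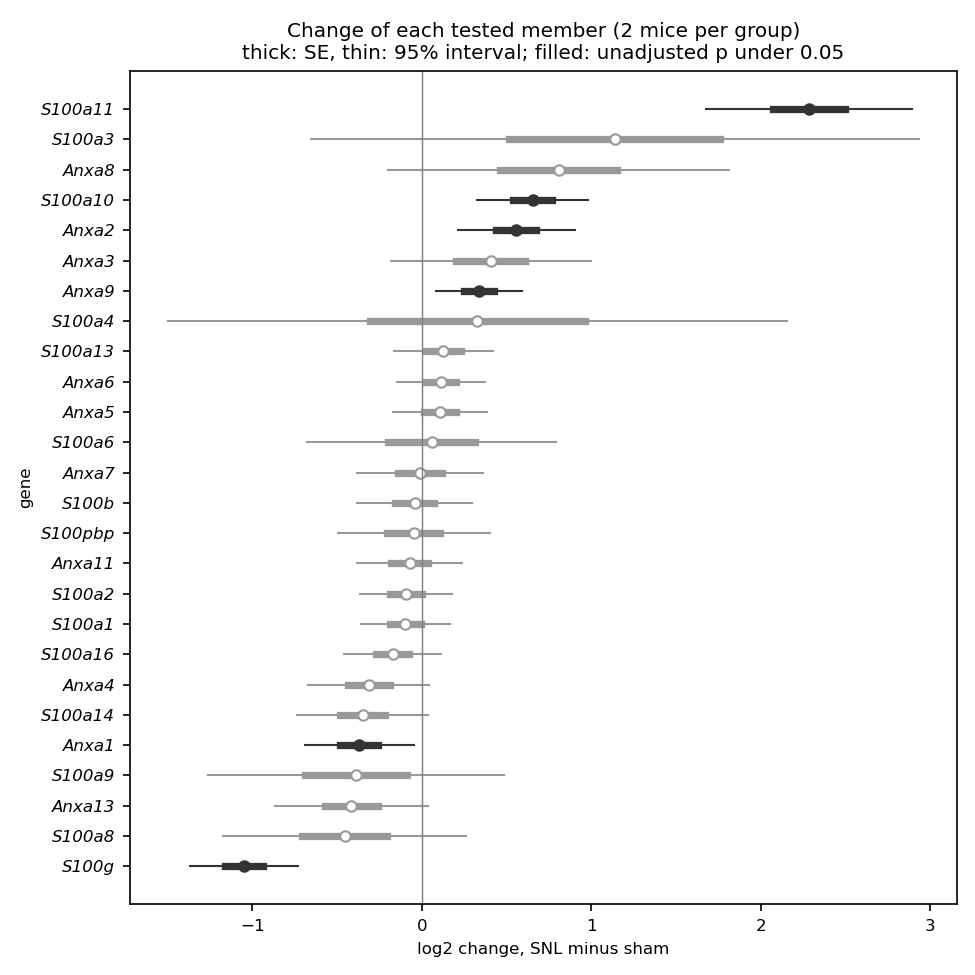
Log2 change of each of the 26 tested members (SNL minus sham, horizontal axis) ordered by size, with the SE as a thick bar and the 95% interval as a thin one, from 2 mice per group. Filled points have an unadjusted p under 0.05. The interval of S100a11 runs from 1.67 to 2.89, while that of S100a4 runs from -1.50 to 2.15.

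Among the other annexins, Anxa9, a little studied member whose calcium binding is atypical, was at -1.002 and -0.98 in the sham mice against -0.64 and -0.66 after SNL. The groups were apart by more than the spread within them, and the change was 0.34 ± 0.088 (unadjusted p of 0.0219, adjusted p = 0.319). Anxa1, which mediates part of the anti-inflammatory action of glucocorticoids and binds formyl peptide receptors, was at 0.36 and 0.40 after sham surgery and at 0.10 and -0.08 after SNL. Both SNL mice lay below both sham mice, with a change of -0.37 ± 0.11 (unadjusted p of 0.0335, adjusted p = 0.362). A separate and dimmer Anxa1 probe gave a change of -0.58, whereas another background correction (normexp) brought the first to -0.20 with an unadjusted p of 0.217. Anxa5, the phosphatidylserine binder used to stain dying cells, was at 2.37 and 2.46 in the sham mice against 2.50 and 2.55 after SNL. Its groups did not overlap, yet the change was 0.11 ± 0.096, with an interval from -0.17 to 0.38. The remaining annexins with values on all arrays ranged from -0.42 ± 0.16 for Anxa13 to 0.81 ± 0.35 for Anxa8, with Anxa3 at 0.41, Anxa4 at -0.31, Anxa6 at 0.11, Anxa7 at -0.011 and Anxa11 at -0.072. None of these had an unadjusted p under 0.05.

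Anxa10, a divergent annexin best known from the stomach, was not tested because the scanner software had flagged its spot as non-uniform on both sham arrays. It read 2.34 and 2.14 in the SNL mice, and the flagged sham spots read -1.16 and -1.61. The authors' deposited table gives -1.03 and -1.48 for the sham mice and 2.47 and 2.26 for the SNL mice, on a scale of its own. With flagged spots kept, an alternative added after the values were seen, the change of Anxa10 was 3.63 ± 0.20, or 12.3-fold, with an adjusted p of 0.0523. That is the largest difference of any member, it just missed the threshold, and it rests on sham spots of doubtful quality. The number of annexins higher at an unadjusted p under 0.05 was then 3 in place of 2. A planned limma fit on the authors' deposited table, which keeps those sham spots, tested all 12 annexins and also counted 3 higher.

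S100g (calbindin D9k), a calcium buffer of intestine and kidney, was the member with the lowest change. It read -5.86 and -5.99 in the sham mice against -7.03 and -6.91 after SNL, and neither SNL array had it well above background. It therefore entered the test only through the sham mice, and its change of -1.05 ± 0.11 (unadjusted p of 0.00106, adjusted p = 0.117) describes a spot near the limit of detection. For each SNL array a floor was taken, the higher of its S100g value and its lowest signal well above background. Against that floor, S100g was at least 1.97-fold lower after SNL. The dimmer probe changed by -1.04, but it overlaps the brighter one and is no separate measurement. With the filter asking for 4 of 4 arrays above background, S100g dropped out and no S100 gene was lower at an unadjusted p under 0.05.

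**Figure D3:**
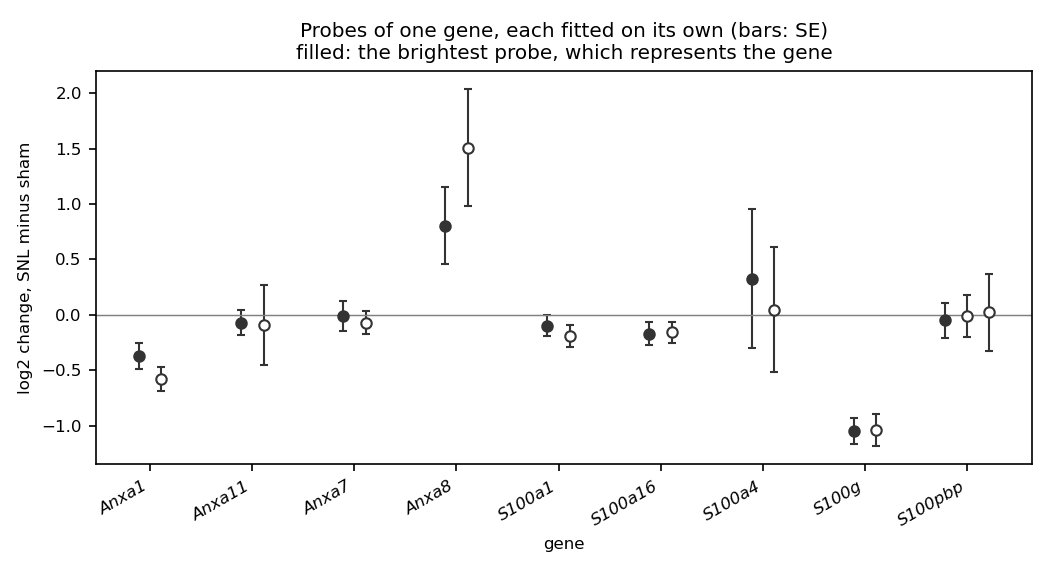
Log2 change (SNL minus sham, vertical axis) of each tested probe of the 9 genes with several of them, with the SE as bars, from 2 mice per group. Filled points are the brightest probe, which represents the gene. The Anxa8 probes read 0.81 and 1.51, and the S100g probes share most of their sequence.

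S100a3, a cysteine-rich zinc-binding member of the hair cuticle, had a change of at least 2-fold without passing either threshold. It read -4.41 and -4.81 in the sham mice against -4.28 and -2.66 after SNL, so SNL mouse 2 alone stood high. Its change was 1.14 ± 0.62 (unadjusted p of 0.148, adjusted p = 0.564), and it ran from 0.33 without SNL mouse 2 to 1.95 without SNL mouse 1. Anxa8, an annexin of epithelia, was also dim and highest in SNL mouse 2, though its groups did not overlap. It read -4.48 and -5.13 in the sham mice against -4.31 and -3.68 after SNL, and its second probe, averaged over up to 10 spots with 1 flagged spot of SNL mouse 1 left out, gave a larger change of 1.51 with the same order of mice.

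S100a8 and S100a9, which form calprotectin and signal through the receptors Tlr4 and Ager, are the members most used as signs of inflammation. S100a8 was at 1.29 and 1.79 in the sham mice against 1.28 and 0.89 after SNL. S100a9 was at 2.23 and 2.63 in the sham mice against 2.37 and 1.70 after SNL. For both genes sham mouse 2 was the highest and SNL mouse 2 the lowest, and the S100a9 groups overlapped. The changes were -0.46 ± 0.25 for S100a8 and -0.39 ± 0.30 for S100a9, with unadjusted p of 0.147 and 0.275. Under normexp the change of S100a8 was -0.68 (unadjusted p of 0.0349, adjusted p = 0.262). That of S100a9 was then -0.35 (unadjusted p of 0.288). With 1 mouse left out, the change of S100a8 ran from -0.70 (without sham mouse 1) to -0.21 (without sham mouse 2), and that of S100a9 from -0.72 (without SNL mouse 1) to -0.053 (without SNL mouse 2). Of 13 neutrophil marker genes, all tested, none passed the adjusted threshold. The matrix protease gene Mmp9 was lower (-1.97) and Lcn2, which glia can also make, was higher (1.46) at an unadjusted p under 0.05. Every marker was well above background on all arrays. The summed level of the list, in units of the 75th percentile, was 15.0 and 17.3 in the sham mice against 16.3 and 18.1 after SNL. That sum is carried by the brightest probes, among them Csf3r (2.95 in SNL mouse 2) and Lcn2, and the median over the markers gave another order. It was -1.22 and -0.43 in the sham mice against -1.20 and -2.12 after SNL, with a median change of -0.64. Like S100a8 and S100a9, 7 of the 13 markers were highest in sham mouse 2 and lowest in SNL mouse 2 (53.8%), against 7.41% of the 28947 genes with a value in every mouse. They were Ltf, Ngp, Camp, Mpo, Elane, Mmp8 and Retnlg, mostly genes of granule proteins. Camp, for example, read 0.057 and 0.79 in the sham mice against 0.095 and -1.54 after SNL, with SNL mouse 2 far below the others. The part of neutrophil RNA in the S100a8 and S100a9 values was not tested.

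S100a4 and S100a6 are abundant in fibroblasts, meninges and Schwann cells and have been studied in reactive glia. S100a4 was at -0.44 and -1.58 in the sham mice against -0.06 and -1.31 after SNL, for a change of 0.33 ± 0.63. S100a6 was at 1.69 and 1.13 in the sham mice against 1.63 and 1.31 after SNL, for a change of 0.057 ± 0.26. In both genes mouse 1 of each group was high and mouse 2 low, so the groups overlapped, and both changes turned negative when sham mouse 2 or SNL mouse 1 was left out. The summed level of 10 meningeal and fibroblast markers was 39.3 and 29.8 in the sham mice against 41.7 and 31.6 after SNL. That of 10 Schwann cell markers was 28.0 and 19.4 in the sham mice against 31.5 and 25.0 after SNL. All markers of both lists were tested and well above background on every array. In 6 of 10 of each list both mice numbered 1 lay above both mice numbered 2, as in S100a4 and S100a6. The share over genes with a value in every mouse was 8.64%. At an unadjusted p under 0.05, Pdgfra and the Schwann cell gene Cdh19 were higher and Igfbp2 lower. Sham mouse 2, which had the lowest sum of both lists, was also the lower sham mouse for S100a11, at -0.42. The part of these tissues in the S100a4, S100a6 and S100a11 values was not tested.

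**Figure D4:**
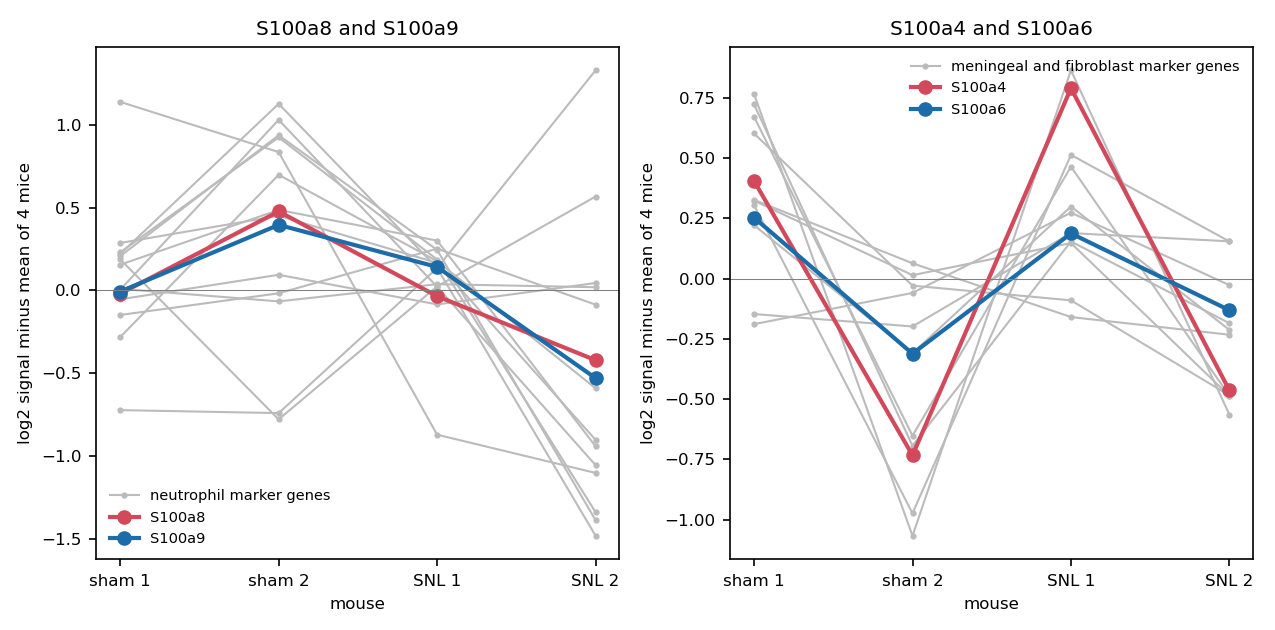
Log2 signal minus the mean of the 4 mice (vertical axis) in each mouse (horizontal axis), with S100a8 and S100a9 over 13 neutrophil marker genes (left) and S100a4 and S100a6 over 10 meningeal and fibroblast marker genes (right), the markers in grey. S100a8 and S100a9 are highest in sham mouse 2 and lowest in SNL mouse 2, while S100a4 and S100a6 are higher in mouse 1 of each group than in mouse 2.

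S100b, secreted by astrocytes and also made by oligodendrocytes, was at 3.54 and 3.38 in the sham mice against 3.49 and 3.35 after SNL. The groups overlapped, and the change was -0.043 ± 0.12 with an interval from -0.38 to 0.29, well inside a 2-fold difference. Of 10 astrocyte markers none was higher or lower at an unadjusted p under 0.05. The calcium sensors S100a1, S100a13, S100a16, S100a2 and S100a14 had changes from -0.35 for S100a14 to 0.13 for S100a13, and S100pbp had -0.047, all with unadjusted p over 0.05. Of these, S100a1, S100a13, S100a2 and S100pbp turned their sign under normexp, as did S100b, so no direction is given for them. S100a5, S100a7a and S100z were well above background on 1, 0 and 1 of the 4 arrays and were not tested.

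The S100 genes with a probe on chromosome 3 fell into groups that lie apart. From S100a1 to S100a9 the tested genes span 181 kb (mm9), and S100a11 and S100a10 follow 3015 and 3053 kb from S100a1. The 10 tested genes of the first stretch had changes from -0.46 to 1.14, none with an unadjusted p under 0.05, where 6.68% higher and 5.47% lower were seen over all genes. The gap between S100a11 and S100a10 is 38.4 kb, and on the other side of S100a11 lie Tchhl1 and Tchh at 54.2 and 77.2 kb, both S100-fused genes of skin and hair. Tchhl1 was at -6.17 and -6.06 in the sham mice against -3.07 and -3.14 after SNL, and it rose by 3.01 ± 0.100 (adjusted p = 0.0375). Tchh had a change of 0.32 (unadjusted p of 0.0456), and of the 7 S100-fused genes listed, Crnn was the only other one tested, at 0.40. In the 200 kb on either side of S100a11, 1 further transcript, without a gene name here, was higher at an unadjusted p under 0.05. The remaining entries tested in that window had changes from -0.74 to 0.22, on both sides of 0 and all with unadjusted p over 0.05.

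**Figure D5:**
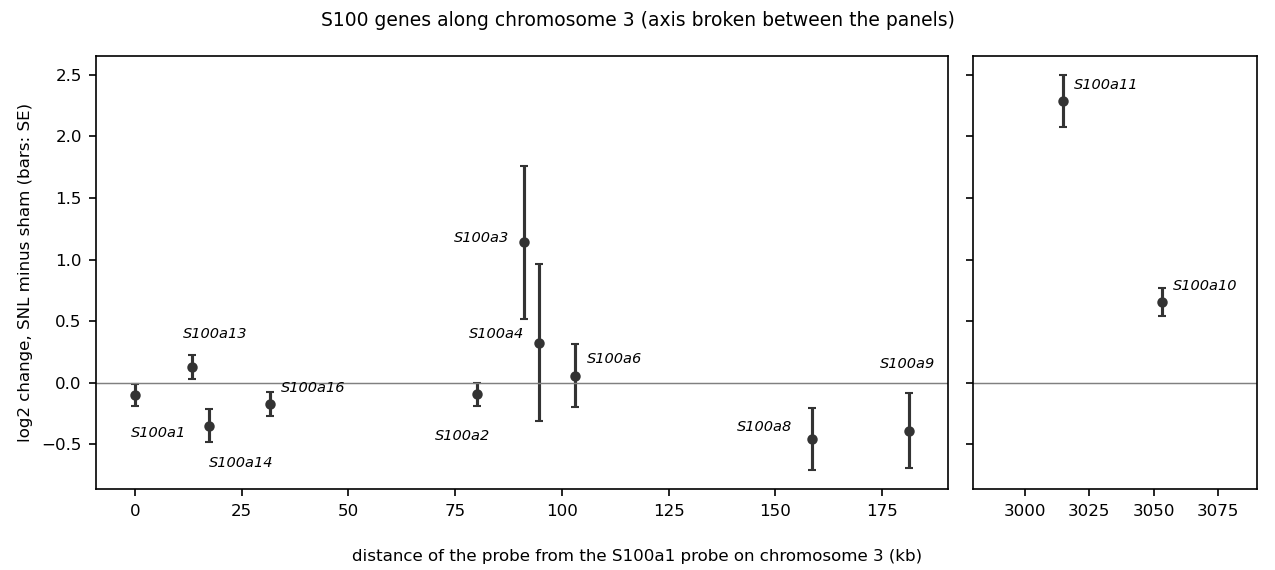
Log2 change (SNL minus sham, vertical axis, bars: SE, 2 mice per group) of the tested S100 genes by distance of their probe from the S100a1 probe on chromosome 3 in kb, with the axis broken between the panels. S100a11 (2.28) and S100a10 (0.65) stand together at 3015 and 3053 kb, and the genes of the first stretch lie between -0.46 and 1.14.

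Promoters of 24 of the 30 members were matched in RefSeq (GRCm38.p6), 6 of them with several promoters, and S100a10 was not among those matched. In each, the 250 bases before the start were searched on both strands for the letters TGANTCA, an AP-1 motif. They occur in at least 1 promoter of 4 members, S100a11, Anxa2, Anxa10 and S100a16 (1 of its 2 promoters), and of 7.82% of 27025 genes. Counted by promoter, 6.75% of 32851 promoters of that length hold them. S100a16 had a change of -0.17. S100a3, S100a4, S100a6, S100a13, Anxa5, Anxa8 and Anxa9, which had positive changes in the main fit, held no match. The first 3 of the 4 members are shown, picked by their higher values after SNL, with the AP-1 letters in capitals. They lie at chr3:93520246-93520495 (+ strand), chr9:69453433-69453682 (+) and chr8:62123194-62123443 (−).
S100a11 promoter: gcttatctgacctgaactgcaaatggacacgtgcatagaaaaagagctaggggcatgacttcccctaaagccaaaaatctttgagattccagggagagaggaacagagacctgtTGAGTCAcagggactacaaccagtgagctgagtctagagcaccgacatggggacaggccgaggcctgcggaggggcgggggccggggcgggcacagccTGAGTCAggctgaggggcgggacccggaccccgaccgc
Anxa2 promoter: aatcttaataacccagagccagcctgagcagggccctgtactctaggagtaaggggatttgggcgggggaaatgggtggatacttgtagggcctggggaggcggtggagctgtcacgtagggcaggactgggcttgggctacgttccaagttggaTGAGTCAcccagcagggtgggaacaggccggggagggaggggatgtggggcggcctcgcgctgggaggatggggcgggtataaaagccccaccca
Anxa10 promoter: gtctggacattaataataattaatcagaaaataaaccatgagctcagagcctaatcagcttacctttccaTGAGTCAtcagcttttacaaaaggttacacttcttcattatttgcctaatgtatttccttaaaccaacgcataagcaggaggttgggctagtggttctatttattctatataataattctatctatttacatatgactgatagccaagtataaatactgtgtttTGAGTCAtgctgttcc
S100a11 and Anxa10 each hold 2 matches and Anxa2 holds 1. An ATF/CREB motif, TGACGTCA, was in none of the members' promoters and in 1.55% of all promoters (1.77% of genes). A STAT motif, TTCNNNGAA, was in promoters of 2 members and in 7.02% of all promoters (8.13% of genes). These are matches of letters, not measured binding sites.

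Genes that work with the S100 proteins were read from lists. Of 7 receptors reported to bind S100 proteins, all tested, none passed the adjusted threshold and 2 were higher at an unadjusted p under 0.05. Cd33, a sialic acid receptor of myeloid cells, had a change of 1.04 ± 0.090, and Tlr4, a receptor of innate immunity, had 0.98 ± 0.15. Ager, the receptor RAGE, was at -0.31 and Alcam at 0.12. Microglia carry both Cd33 and Tlr4, and of 10 microglia markers 6 were higher at an unadjusted p under 0.05, with a summed level of 40.9 and 42.8 in the sham mice against 60.3 and 52.7 after SNL. The part of microglial RNA in these values, and in those of S100a11, S100a10 and Anxa2, was not tested.

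Of 15 tested binding partners of S100 proteins inside cells (18 listed), 1 passed the adjusted threshold. Trpv6, a calcium channel that S100a10 with Anxa2 carries to the membrane, was at -3.58 and -3.25 in the sham mice against -0.28 and -0.13 after SNL. It rose by 3.21 ± 0.16 (adjusted p = 0.0482). Kcnk3, a potassium channel that also binds S100a10, had a change of -0.68 ± 0.10 (unadjusted p of 0.00380). Ppfibp1 and Ahnak had 0.27 and 0.65. When any 1 of the 4 mice was left out, no gene on the array kept an adjusted p under 0.05, Trpv6 and Tchhl1 included.

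The complex of S100a10 and Anxa2 gathers plasminogen and its activators at the cell surface. Of 8 tested genes of that system, 3 were higher at an unadjusted p under 0.05 and none lower. They included Plaur, the urokinase receptor (0.93 ± 0.27), and Plat, tissue plasminogen activator (0.28 ± 0.088). Plg itself was at 0.94 ± 0.35 with an unadjusted p of 0.0607. None passed the adjusted threshold.

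Of 10 tested genes for Anxa1 receptors and lipid mediator enzymes (15 listed), 2 were higher and 1 lower at an unadjusted p under 0.05. Alox5ap, needed for leukotriene synthesis, had a change of 0.86 ± 0.11, and Ptgs2, the inducible cyclooxygenase, had 1.81 ± 0.48. Pla2g4a, the phospholipase that Anxa1 inhibits, had -0.42 ± 0.13, and Tsc22d3, a glucocorticoid target, had 0.31. Of 16 tested partners of annexins in phosphatidylserine exposure and membrane repair, 1 was higher at that p, Mertk, a receptor for dying cells (0.79 ± 0.15), while Dysf, Sri and Xkr8 were at 0.48, 0.17 and -0.21. Of 28 other EF-hand genes tested, none was higher and 1 lower at that p, Cabp7 (-0.40). No gene of these lists passed the adjusted threshold.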

How the data were processed

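Linear spot intensity values are in the deposited scanner output of Agilent Feature Extraction, whose version the file headers give as 10.7.3.1. The submitters' processing notes name version 10.7.1.1. The signals come from Cy3-labelled RNA on array design 028005. The authors' deposited value table matched the log2 of these signals closely on each array, with column medians from -3.52 to -3.33 and a centring not given in the sources used here, and it served as an alternative. Here the processed signals were put on the log2 scale and each array's 75th percentile over its non-control spots was subtracted. Flagged outlier spots were counted in that percentile but left out of the probe values. Probes well above background on at least 2 of 4 arrays entered, and the brightest probe represented a gene. limma 3.58.1 in R 4.3.3 compared 2 SNL with 2 sham mice. With 2 mice per group the number of arrays limits precision.

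Members and lists were chosen with earlier results of these data known. Members with an unadjusted p under 0.05, those with a 2-fold difference and 9 long studied ones were given in full, and up to 4 genes of each pathway list by p, apart from some that are not reported here. Other genes singled out among markers and neighbours were chosen after their values were seen. The lists were the 7 pathway and 14 cell type lists whose counts are printed. Alternatives were another background correction, normalization, percentile, filter, probe summary and variance model, the replicate number as a block, leaving out each mouse, and, added after seeing the data, keeping flagged spots.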

Additional observations from a re-analysis of the deposited data

How the results depend on the processing

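Of 363 changes of members under alternative settings, 348 kept their direction and 15 reversed. Under normexp these were S100a1 (0.12), S100a13 (-0.18), S100a2 (0.015), S100b (0.17) and S100pbp (0.090). With 1 mouse left out, S100b ranged from -0.12 to 0.035, Anxa7 from -0.12 to 0.096, S100a4 from -0.30 to 0.95, S100a6 from -0.23 to 0.34 and S100pbp from -0.20 to 0.11. S100a11 (2.28) passed the adjusted threshold with all dim probes kept and also with the variance trend, S100a10 (0.65) and Anxa2 (0.56) with the latter, and S100g (-1.05) without a filter. Genes called higher numbered 47, against 118 with normexp, 11 with quantile normalization, 27 with the percentile over detected probes, 1137 without a filter and 422 with the variance trend. Genes called lower numbered 3, against 14 with normexp, 0 with quantile normalization (where limma's unadjusted counts of S100 genes and annexins lower were 2 and 2), 88 without a filter, 5 with all 4 arrays above background, 7 with the mean of a gene's probes, 117 with the variance trend and 5 with each probe on its own. S100 genes lower at an unadjusted p under 0.05 were 1, against 2 with normexp, 0 with all 4 arrays above background and 2 with each probe. Annexins lower were 1, against 3 with the variance trend and 2 with each probe, and the annexin median moved from 0.11 to 0.015 with quantile normalization and to -0.011 with each probe. The cause of these shifts was not tested, beyond the fewer or more genes tested under each filter.

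Leaving out 1 mouse left 0 to 0 genes called in either direction, 1 to 2 S100 genes lower, 0 to 2 annexins higher and 0 to 1 annexins lower, with a lone mouse assumed to vary like the other group. With the replicate number as a block, 0 genes were called higher, 0 lower, and 1 annexin was higher at an unadjusted p under 0.05. Over 28947 genes, the deviations of same-numbered mice from their group means correlated at r = -0.028. A correlation over all genes cannot show whether same-numbered mice shared a step that touched only some genes. In 6 of 10 meningeal and fibroblast markers and 6 of 10 Schwann cell markers both mice numbered 1 lay above both mice numbered 2. Whether the number stands for a shared step was not tested. The planned block on slide or scan was not run, since there was 1 of each. Dim members such as S100g, S100a3 and Anxa8 are limited by signal near background.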

Other observations

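Further cell types of cord and its surroundings were read through marker lists, by counts at an unadjusted p under 0.05. Of 10 motor neuron markers 7 were lower, and 2 of them, Chodl (-3.84) and Mnx1, passed the adjusted threshold in limma. Mnx1 was not well above background on either SNL array and entered only through the sham mice. There it stood 15.6-fold above the lowest signals well above background on the SNL arrays. Of 10 markers each, 1 was higher and 1 lower among oligodendrocyte genes and among endothelial genes, 1 was higher among neuron genes, and none was either among keratinocyte genes. Of 8 monocyte and macrophage markers tested 1 was higher. None was either higher or lower among 8 sensory ganglion neuron, 8 ependyma and 5 red blood cell markers tested.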
